A study of Cyprinus carpio with 18 samples.

Results

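The genes described here encode the filaments of the muscle sarcomere in common carp (Cyprinus carpio): myosin heavy and light chains, myosin-binding proteins, titins, nebulins, myomesins and alpha actins. They were chosen by the wording of their descriptions in the deposited annotation, as protein-coding rows that name one of these proteins and do not name a kinase, a phosphatase or an unconventional myosin. That rule found 135 genes among 90808 annotated features, of which 49264 were protein-coding. The members fell into 39 myosin light chain, 31 myosin heavy chain, 29 titin, 11 myosin-binding protein, 10 alpha actin, 9 myomesin and 6 nebulin genes.

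RNA was sequenced from whole wild-type embryos of the FFRC No.2 strain, a selected line of common carp, obtained by natural spawning. There were 6 stages with 3 libraries each. Embryos were taken 2 hours after fertilization (cleavage), after 6 hours (blastocyst), after 12 hours (gastrulation), after 20 hours (organ formation) and after 64 hours (hatching), and larvae 1 day after they hatched. The labels give no treatment and the same strain and genotype for all groups, so stage was the factor compared, and each stage was set against the one before it. Libraries were strand-specific and depleted of rRNA, and the RNA that went into them had been pooled by stage, as the labels' protocols state. Nothing says that the 3 libraries of a stage came from separate clutches, so p-values reflect only how far these libraries scattered, and that scatter may be technical.

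In striated muscle, myosin heavy chains form the thick filament and carry the motor heads, and each head binds an essential and a regulatory light chain. Alpha actin forms the thin filament, nebulin lies along it, titin spans from the Z disc to the M band as an elastic scaffold, myomesin cross-links thick filaments at the M band, and myosin-binding proteins C and H decorate the thick filament. In fish embryos the first sarcomeres form in the somites and the heart, and fast and slow muscle fibres use different myosin isoforms. Smooth and non-muscle light chains serve contractility in other cells, including egg and early embryo.

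Total counts ranged from 16326813 to 43270557 per library. Counts were made relative to the library total with TMM factors (CPM, counts scaled to a library of standard size). The deposited RPKM values, which divide by transcript length, are used for the share of a gene within its class. Shares of types and sums over classes use counts or CPM, in which long transcripts weigh more. Of the 135 members, 102 had enough counts to be tested, 29 more had counts in some library and 4 had none in any. The heavy chains were the class least covered by the test, with 10 of 31 genes. Several members share a description, among them most heavy chains and some alpha actins. On one sequence of the authors' build lie 10 titin rows, and on another 4. The lengths that counts and RPKM imply for them run from 0.861 to 66.5 times that of the alpha actin LOC109108280. Whether they are separate genes or parts of the same gene was not tested, so titin counts may count a gene more than once. Sequences of the members were not compared here. No source states how reads that fit several copies were handled, so values of single copies are uncertain. The embryos were whole, so fewer muscle cells and less RNA per cell cannot be told apart.

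The descriptions were checked against the label of the group. The annotation named 1 member as slow, a myosin-binding protein C, slow-type-like gene (LOC109089455), which had no count until the larva, where it reached 0.460 ± 0.253 CPM (SD, n = 3) and was not tested. So the group holds skeletal, cardiac, smooth and non-muscle types but hardly any slow ones by name. One row called titin homolog (LOC109077253) carries the symbol alpk3b, an alpha kinase of muscle, in the RefSeq gene table of assembly ASM1834038v1. That table holds 74 of the members, and all newer symbols below come from it. Types follow the descriptions, which the symbols do not always match. The alpha actin LOC109108280 is described as skeletal, but its symbol actc1b pairs it with actc1a (LOC109113560), described as cardiac. Which type it is was not tested. Of the 10 and 4 titin rows on the sequences mentioned above, it holds only ttn.1 (LOC109100768), ttn.2 (LOC109100830) and LOC109090096.

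The members as one group were a trace of the RNA at cleavage and blastocyst and a larger part of it on average at each stage from gastrulation on. They took 0.0536%, 0.0469% and 0.0558% of the counts in the 3 cleavage libraries and 0.0502%, 0.0514% and 0.0542% in the blastocyst. The share was 0.112%, 0.115% and 0.160% at gastrulation and 1.62%, 0.981% and 1.02% at organ formation. It was 2.40%, 4.77% and 2.83% at hatching and 4.59%, 5.22% and 4.34% in the larva. Libraries of neighbouring stages did not overlap from blastocyst to gastrulation, organ formation and hatching, whereas the hatching library numbered 2 lay above 2 of the 3 larval libraries.

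**Figure D1:**
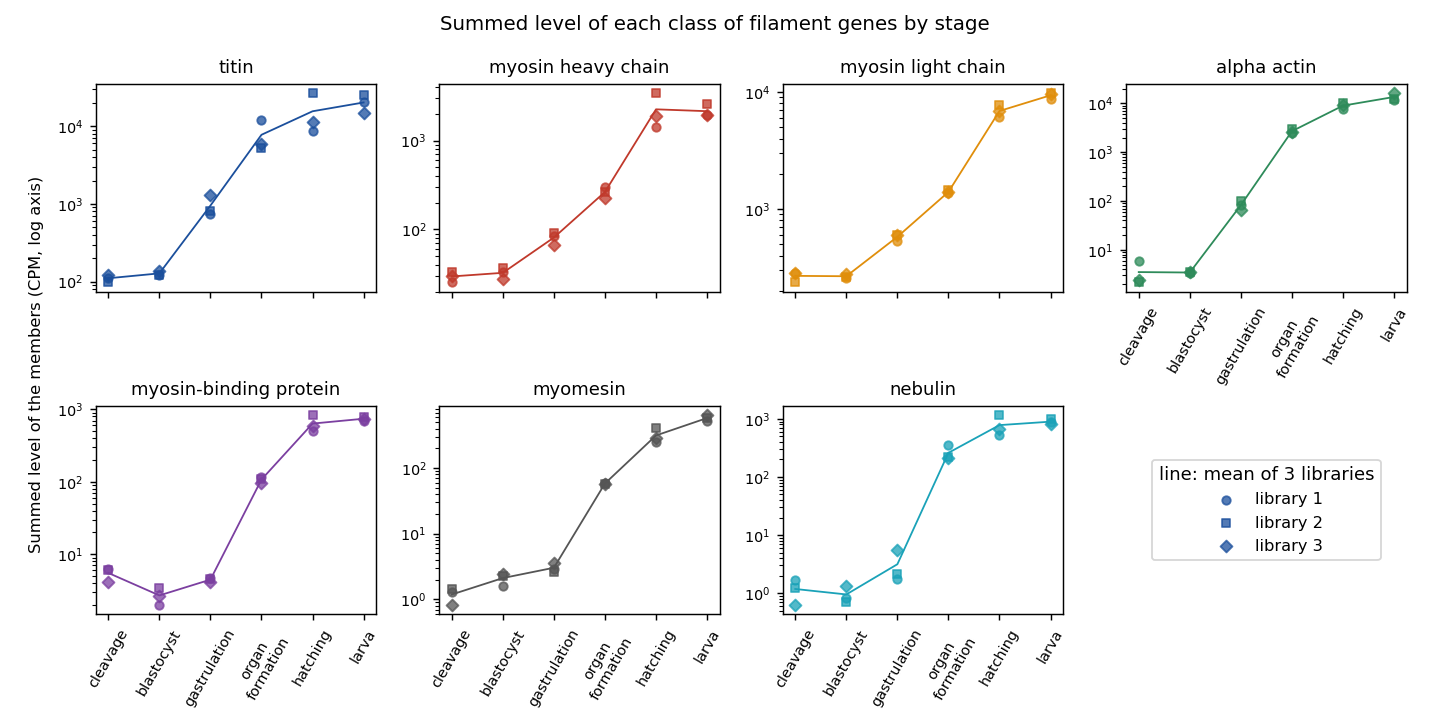
Each panel sums the CPM of one class of members (log axis) against stage, with a point per library and a line through the mean of the 3 libraries. Light chain and titin sums average 269.3 and 110.4 CPM at cleavage, whereas nebulin, myomesin, alpha actin and myosin-binding protein sums average 1.18 to 5.51 CPM.

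The light chain sum was 269 CPM at cleavage, 267 at blastocyst, 580.3 at gastrulation, 1401 at organ formation, 6883 at hatching and 9368 in the larva. The alpha actin sum was 3.50, 3.43, 82.4, 2697, 9006 and 13576 CPM at the same stages. The titin sum was 110.4, 127.6, 952, 7758, 15564 and 20208 CPM. Onset was the first stage at which a gene's mean CPM reached 5% of its highest stage mean. Over all members, untested ones too, it lay at cleavage in 17 genes, blastocyst in 5, gastrulation in 29, organ formation in 54, hatching in 15 and larva in 11. Where a row has few counts, stray reads can set its onset. Gastrulation had 18 genes rather than 29 with a cut of 10%, and also 18 by RPKM at 5%. The highest stage mean was in the larva for 82 genes and at hatching for 20. On the CPM scale 14 genes were highest at gastrulation, of which 5 were light chains, 5 titins and 4 heavy chains, against 6 genes by RPKM. Untested rows near zero are part of these tallies, such as the heavy chain LOC109059960, with 1 count at gastrulation and none elsewhere.

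The early pool was mainly of the smooth and non-muscle type. Members described as smooth muscle or non-muscle made 71.0% of all member counts at cleavage, 68.4% at blastocyst, 38.8% at gastrulation, 6.19% at organ formation, 2.26% at hatching and 1.53% in the larva. With TMM factors their summed level moved little after gastrulation, with means of 298.6, 298.6, 650.0, 737.6, 734.4 and 721.0 CPM over the 6 stages. That course depends on the scaling. With library totals the median log2 change of all features was 0.10 rather than 0.75 at gastrulation, and 0.59 rather than 0.25 at organ formation. On that scale the rise of this type is smaller at gastrulation and larger at organ formation. Members described as fast or skeletal made 0.900%, 0.864%, 3.01%, 17.0%, 45.8% and 48.1% of member counts at those stages, and cardiac members 0.413%, 0.583%, 2.79%, 12.9%, 6.01% and 3.70%. On this measure cardiac members had their largest share at organ formation, and fast members overtook every other named type there and stayed above them. A falling share is not a falling level, as the members together took more of the counts at hatching. There 6 of 16 tested cardiac members rose and 0 fell, beside 17.4% and 12.2% of all tested features. Their median log2 change was 0.43. These shares are of counts, not corrected for length, so the long titin rows weigh on each of them. At organ formation titins made 72.1%, 50.7% and 56.3% of member counts in the 3 libraries. The cardiac share was 8.06%, 16.6% and 14% in the same libraries, and the fast or skeletal share 11.9%, 20.7% and 18.3%.

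The first comparison, blastocyst against cleavage, spans the start of zygotic transcription. By edgeR's quasi-likelihood test at an adjusted p of 0.05, 10 of the 102 tested members rose, 7 fell and 85 missed the threshold, where 15.8% of all 69265 tested features rose and 6.52% fell (22.3% either way). The median log2 change was 0.00 over the members and 0.06 over all tested features. Of the 17 members called, 8 were light chains, and 7 of these were of the smooth or non-muscle type.

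Among these light chains a smooth muscle minor isoform-like regulatory light chain (LOC109057136) rose, with 73.7, 68.3 and 72.5 CPM at blastocyst, against 57.0, 24.5 and 38.4 CPM at cleavage. The libraries of the 2 stages did not overlap, and the log2 change was 0.84 (SE 0.18, edgeR adjusted p = 0.002). A second light chain with that description (LOC109110107) had 43.4, 42.9 and 48.2 CPM at blastocyst, against 55.7, 54.0 and 68.4 CPM at cleavage, a log2 change of -0.40 (SE 0.11, edgeR adjusted p = 0.0088). Another, myl12.1 (LOC109101677), changed by -0.46 (SE 0.12, edgeR adjusted p = 0.0065). Both of these falls lost their call in several refits, among them those without cleavage replicate 2 or 3 or blastocyst replicate 3, where the log2 change of LOC109110107 was -0.09 to -0.20 and that of myl12.1 -0.15 to -0.30.

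A titin homolog and a heavy chain were also present from cleavage on. The titin homolog row LOC109101381 had 70.5, 64.1 and 71.1 CPM at blastocyst, against 44.9, 55.3 and 50.8 CPM at cleavage (log2 change 0.45, SE 0.12, edgeR adjusted p = 0.0083), and without cleavage replicate 1 its call was lost with an adjusted p of 0.051. Per length it held 85.3% of all titin RPKM at blastocyst and 81.5% at cleavage. The smooth muscle heavy chain described as embryonic (LOC109062390) had 32.7, 36.1 and 27.3 CPM at blastocyst, against 25.4, 33.0 and 30.3 CPM at cleavage, values that overlap and did not pass (edgeR adjusted p = 0.65). It made 98.7% of the heavy chain RPKM at blastocyst and 99.9% at cleavage among the 31 member heavy chains, which leave out the numbered and non-muscle myosins. Among the muscle-type rows called, the myosin-binding protein H-like gene LOC109052165 fell, with 1.11, 1.28 and 0.460 CPM at blastocyst, against 4.81, 3.96 and 2.10 CPM at cleavage (log2 change -1.97, SE 0.28, edgeR adjusted p = 3.7e-05). The skeletal actin LOC109055631 and the myomesin LOC109107816 also fell. The cardiac actins LOC109052669 and LOC109082580, the skeletal light chain LOC109073317 and the myomesin LOC109068548 rose. Each of these other rows lost its call in some refits.

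At gastrulation most titins, alpha actins and smooth or non-muscle light chains rose. Against the blastocyst, 60 of the 102 tested members rose, 3 fell and 39 missed the threshold, where 44.4% of all tested features rose and 22.3% fell (66.7% either way). The median log2 change was 2.12 for the members and 0.75 for all tested features. Among the classes, 22 of 26 tested titin rows and 9 of 10 alpha actins rose, with median log2 changes of 4.43 and 4.52. So did 18 of 34 light chains. Risers among the other classes were 4 of 10 heavy chains, 3 of 8 myosin-binding proteins and 3 of 9 myomesins. Their shares of 40%, 37.5% and 33.3% lay below that of all tested features. The heavy chain LOC109112168 went from no count to 9 and LOC109048412 from 1 to 10. Both lost their call in several refits without 1 library. Some titin rows may be parts of the same gene, which was not tested. By described type, 13 of 15 smooth or non-muscle, 9 of 16 cardiac and 10 of 25 fast or skeletal members rose, and among cardiac light chains 2 of 8. Of the heart markers, a list outside the members, 7 of 17 rose and 5 fell, with a median log2 change of -1.05.

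**Figure D2:**
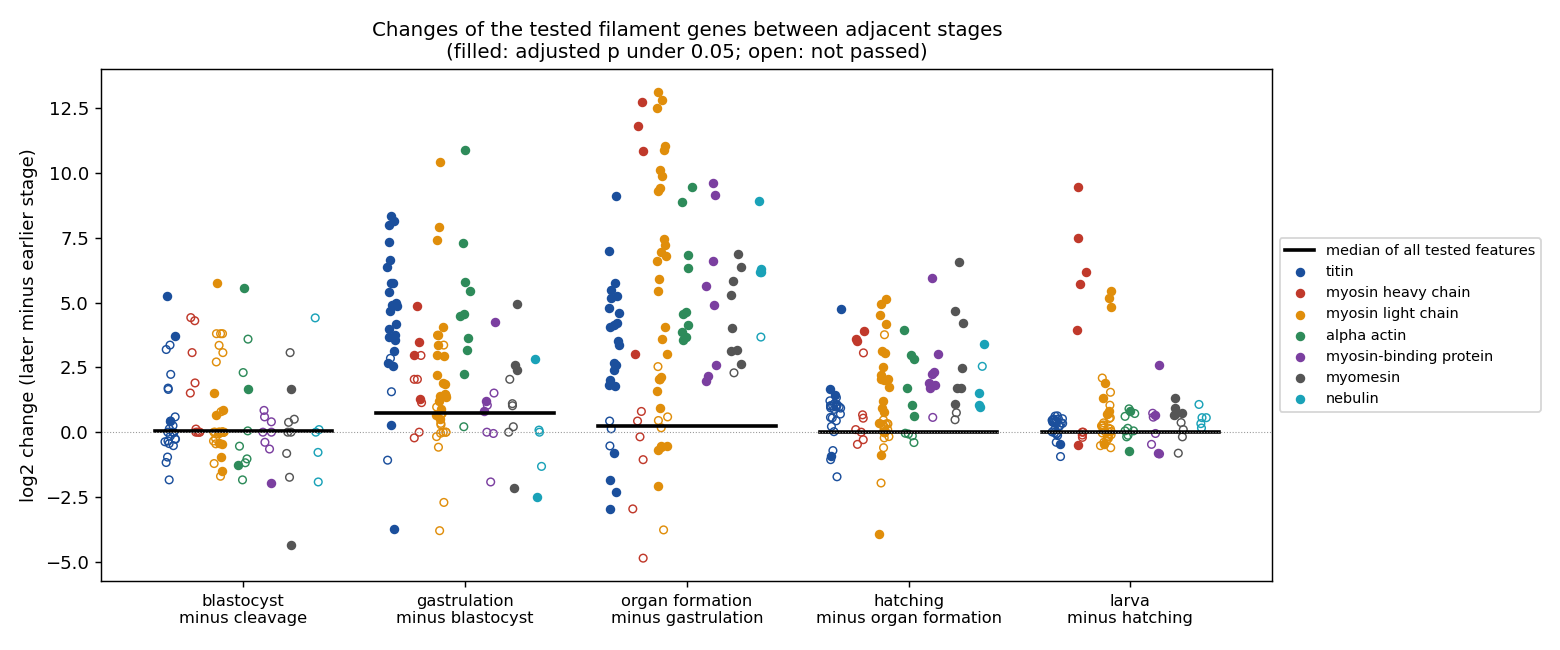
Log2 change of each of the 102 tested members (later minus earlier stage) in the 5 comparisons, coloured by class, filled where the edgeR adjusted p was under 0.05 and open where it was not, with a black bar at the median of all tested features. The members' points sit mainly above the bar at gastrulation, organ formation and hatching, and the largest rises of fast light chains come at organ formation.

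The alpha cardiac actin actc1a (LOC109113560) had no count in any blastocyst library. Gastrulation libraries held 9.07, 10.3 and 5.45 CPM, at least 342-fold higher than the level that 3 counts over the blastocyst libraries would give (edgeR adjusted p = 1.7e-13). Another cardiac actin, actc2 (LOC109082580), averaged 22.3 CPM at gastrulation, against 0.941 CPM at blastocyst, and rose by a log2 change of 4.56 (SE 0.33, edgeR adjusted p = 1.5e-09). The alpha actin actc1b (LOC109108280), described as skeletal, later has the largest share of the class. It had 0.273, 1.01 and 0.422 CPM at gastrulation, against 0.450, 0.396 and 0.774 CPM at blastocyst, and did not pass (edgeR adjusted p = 0.75). A myosin light chain 1, cardiac muscle-like gene (LOC109070569) had 5.39, 8.46 and 3.98 CPM at gastrulation, against no count at blastocyst, at least 246-fold higher (edgeR adjusted p = 1.7e-11).

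Among the titins, a separate titin-like row (LOC109097634) had 71.5, 89.5 and 98.1 CPM at gastrulation, against 0.119, 0.148 and 0.508 CPM at blastocyst. Its log2 change of 8.36 (SE 0.36, edgeR adjusted p = 4.1e-14) was the largest titin rise among genes at 10 CPM or more. At organ formation this row had 19.9, 16.6 and 15.7 CPM, against the gastrulation values just given, and fell by 2.31 on the log2 scale (SE 0.25, edgeR adjusted p = 1.1e-07). So it was highest at gastrulation, and no gastrulation library overlapped with either neighbour. The titin-like row LOC109067943 had 40.6, 27.7 and 29.0 CPM at gastrulation, against 0.261, 0.272 and 0.436 CPM at blastocyst (log2 change 6.63, SE 0.38, edgeR adjusted p = 7.5e-12).

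The 3 largest titin rows by count are ttn.1 (LOC109100768), ttn.2 (LOC109100830) and LOC109090096, whose transcripts are 60.9, 33.3 and 66.5 times as long as that of actc1b by the lengths that the deposited counts and RPKM imply. LOC109090096 had 306.6, 342.4 and 591.4 CPM at gastrulation, against 24.6, 25.6 and 29.3 CPM at blastocyst (log2 change 3.97, SE 0.49, edgeR adjusted p = 7.5e-06). For ttn.2 the values were 55.1, 77.1 and 143.9 CPM at gastrulation, against 0.901, 0.692 and 1.69 CPM at blastocyst (log2 change 6.39, SE 0.60, edgeR adjusted p = 4.8e-07). Gastrulation and blastocyst libraries did not overlap for either gene, and the library numbered 3 was the highest of its stage in both.

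The scaling matters most in this comparison. With library totals in place of TMM factors the median change of all features was 0.10 rather than 0.75, and the light chain count became 12 higher and 2 lower, against 18 and 0. Calls lost with library totals came from several classes: light chains of the smooth or non-muscle type and the skeletal light chain mylpfb (log2 change 0.67, edgeR adjusted p = 0.19), the myosin-binding proteins LOC109052165 and LOC109102750, the heavy chain LOC109048412 and the titin LOC109078923 among them. The regulatory light chain LOC109110091 had a log2 change of 0.66 with TMM factors and -0.00 with library totals, and the titin homolog LOC109101381 had 0.27 and -0.39. Titins were higher under either count scaling (22 and 20 of 26).

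Most members of every class but the heavy chains rose at organ formation. Against gastrulation, 76 of the 102 tested members rose, 9 fell and 17 missed the threshold, where 28.1% of all tested features rose and 19.8% fell (48% either way). The median log2 change was 4.04 for the members and 0.25 for all tested features. All 10 alpha actins and all 8 tested myosin-binding proteins rose, as did 8 of 9 myomesins, 4 of 5 nebulins, 23 of 34 light chains, 19 of 26 titins and 4 of 10 heavy chains.

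Each of the 9 light chains described as skeletal rose, with a median log2 change of 9.42. The skeletal regulatory light chain LOC109098961 had 32.4, 31.3 and 29.8 CPM at organ formation, against no count in any gastrulation library, at least 766-fold higher (edgeR adjusted p = 3.6e-14). The skeletal essential light chain LOC109064236, described as myosin light chain 3, had 26.4, 24.7 and 25.9 CPM, against no count at gastrulation, at least 632-fold higher (edgeR adjusted p = 3.3e-12). The regulatory light chains mylpfb (LOC109073317) and mylpfa (LOC109062536), fast light chains of fish myotomes, rose by log2 changes of 6.94 (SE 0.28) and 10.10 (SE 0.38) to means of 73.8 and 79.2 CPM (edgeR adjusted p = 9.5e-13 and 3.6e-13).

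One light chain that rose here fell at hatching. The myosin light chain 4-like gene LOC109052177, of a family that in mammals is used in embryonic muscle and the atrium, had 36.5, 39.4 and 42.0 CPM at organ formation, against no count at gastrulation, at least 966-fold higher (edgeR adjusted p = 1e-11). Cardiac light chains rose in 6 of 8 tested cases. The regulatory light chain 2B, cardiac muscle isoform-like gene LOC109096875 had 113.5, 164.4 and 134.9 CPM at organ formation, against 0.136, 0.0977 and 0 CPM at gastrulation (log2 change 10.89, SE 0.37, edgeR adjusted p = 6.2e-14). The atrial light chain myl7 (LOC109101142), a marker of heart muscle in fish, had 6.94, 5.25 and 7.46 CPM at organ formation, against 0, 0.195 and 0.0704 CPM at gastrulation (log2 change 5.90, SE 0.74, edgeR adjusted p = 8.7e-07).

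Among heavy chains, the 3 skeletal genes with the highest stage means rose here. LOC109107622 had 131.2, 116.5 and 96.3 CPM at organ formation, against 0, 0 and 0.0704 CPM at gastrulation. With 2 counts at gastrulation the ratio was 4237 with an exact counting interval of 1172 to 34990 (edgeR adjusted p = 1.8e-10). LOC109074077 had 34.6, 29.9 and 24.0 CPM, against no count at gastrulation, at least 725-fold higher (edgeR adjusted p = 8.4e-06). LOC109074062 had 38.9, 31.3 and 27.4 CPM, against 1 count in all at gastrulation (edgeR adjusted p = 2.3e-08). The cardiac heavy chain by name (LOC109092009) had 18.9, 19.7 and 13.5 CPM at organ formation, against 1.98, 1.33 and 3.06 CPM at gastrulation (log2 change 3.02, SE 0.34, edgeR adjusted p = 2.1e-07).

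**Figure D3:**
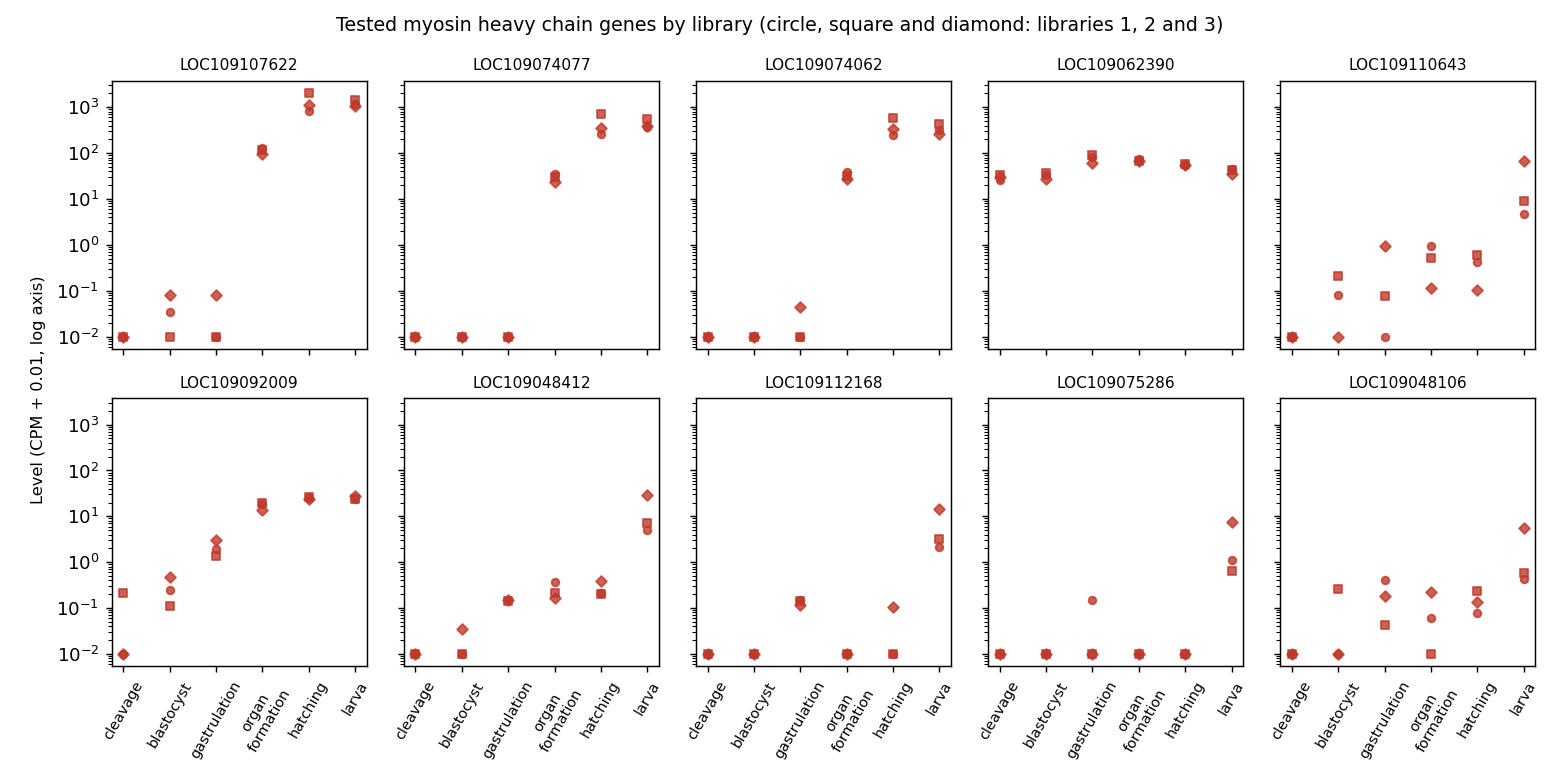
CPM plus 0.01 (log axis) of the 10 tested myosin heavy chain genes against stage, one point per library. The genes LOC109107622, LOC109074077 and LOC109074062 are high from organ formation on, LOC109062390 is present at every stage, and 5 genes with few counts rise in the larva. Of these last, LOC109110643 and LOC109048106 are pseudogenes in the RefSeq gene table.

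The alpha actins rose as a family. For actc1b the libraries held 436.0, 463.0 and 428.5 CPM at organ formation, against 0.273, 1.01 and 0.422 CPM at gastrulation, with a log2 change of 9.46 (SE 0.41, edgeR adjusted p = 5.7e-12). For actc1a they held 591.9, 747.1 and 632.9 CPM at organ formation, against 9.07, 10.3 and 5.45 CPM at gastrulation (log2 change 6.32, SE 0.20, edgeR adjusted p = 1.1e-14). Per length, actc1a made 24.5% ± 0.76 and actc1b 17.8% ± 0.98 of the alpha actin RPKM at organ formation (SD, n = 3), so the cardiac-described gene led at this stage.

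Scaffold genes rose too. The nebulin gene neb (LOC109095935) had 326.9, 196.0 and 194.9 CPM at organ formation, against 1.57, 1.99 and 5.17 CPM at gastrulation (log2 change 6.30, SE 0.50, edgeR adjusted p = 7.7e-08). The myosin-binding protein H-like gene LOC109052162 had 36.6, 34.6 and 29.3 CPM, against 0, 0.0326 and 0.106 CPM at gastrulation (log2 change 9.16, SE 0.32, edgeR adjusted p = 3.5e-15). The myomesin-1-like gene LOC109048401 had 17.6, 19.9 and 17.0 CPM, against 0.0682, 0.423 and 0.0704 CPM at gastrulation (log2 change 6.38, SE 0.36, edgeR adjusted p = 2.2e-11). None of these genes had a library at organ formation that overlapped with gastrulation.

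The large titins rose as well, with 1 library far above the other 2. LOC109090096 had 4108, 1734 and 1967 CPM at organ formation, against 306.6, 342.4 and 591.4 CPM at gastrulation (log2 change 2.65, SE 0.46, edgeR adjusted p = 0.00028). The values of ttn.2 were 2585, 1176 and 1410 CPM at organ formation, against 55.1, 77.1 and 143.9 CPM at gastrulation (log2 change 4.22, SE 0.50, edgeR adjusted p = 9.2e-06). Library 1 of organ formation held the highest value in both.

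The 9 falls at this step were 5 smooth or non-muscle light chains and 4 titin rows. The largest fall among light chains was that of LOC109110091, with 12.2, 16.5 and 13.9 CPM at organ formation, against 52.9, 62.1 and 64.2 CPM at gastrulation (log2 change -2.07, SE 0.16, edgeR adjusted p = 3.9e-10). LOC109101381 fell by 0.80 on the log2 scale (SE 0.12, edgeR adjusted p = 8.1e-06). The falls of LOC109057136, LOC109110107 and myl12.1, of 0.54 to 0.58 on the log2 scale, were not called with library totals, where their log2 changes were -0.18 to -0.22. In the other direction the non-muscle essential light chain LOC109048155 (myosin light polypeptide 6) rose by a log2 change of 1.60 and the regulatory light polypeptide 9 gene LOC109053407, a smooth muscle type, by 3.60 (edgeR adjusted p = 1.7e-10 and 9.6e-16).

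Genes around the filaments that are not members moved at the same step. At organ formation 28.1% of all tested features rose and 19.8% fell. Of the thin filament regulators, troponins and tropomyosins, 31 of 53 tested rose and none fell. Of the heart markers 10 of 17 tested rose and 2 fell, with a median log2 change of 2.69. Of the Z disc and M band anchors 58 of 79 rose and 4 fell, and of the sarcomere assembly factors, chaperones and ligases that fold or turn over myosin among them, 35 of 42 rose and 4 fell. At gastrulation 44.4% of all tested features had risen. So had 8 of 9 tested myogenic transcription factors, 30 of 42 assembly factors and 47 of 79 anchors. Of the thin filament regulators 19 of 53 (35.8%) had risen, below the share of all features. Of the myogenic factors, 6 rose and 3 fell at organ formation. At hatching none of them rose and 6 fell, beside 17.4% and 12.2% of all tested features. At gastrulation, organ formation and hatching the median log2 changes of the myogenic list were 5.57, 1.95 and -1.49. The chaperone gene unc45b, required for myosin folding in zebrafish, rose at gastrulation by a log2 change of 4.44 and at organ formation by 3.00 (edgeR adjusted p = 1.2e-07 and 2.4e-06), and had means of 19.2, 154.9, 93.0 and 51.4 CPM from gastrulation to the larva.

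From organ formation to hatching the skeletal light chains, myomesins and myosin-binding proteins gained. Against organ formation, 46 of the 102 tested members rose, 3 fell and 53 missed the threshold, where 17.4% of all tested features rose and 12.2% fell (29.6% either way). The median log2 change was 1.01 for the members and -0.01 for all tested features. The 9 skeletal light chains all rose, with a median log2 change of 3.15, and so did 7 of 9 myomesins, 7 of 8 myosin-binding proteins, 6 of 10 alpha actins, 4 of 5 nebulins and 3 of 10 heavy chains. Of the titins 3 of 26 rose.

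The fast regulatory light chain mylpfb had 2252, 2922 and 2547 CPM at hatching, against 80.1, 71.6 and 69.6 CPM at organ formation, a log2 change of 5.12 (SE 0.22, edgeR adjusted p = 1.4e-11). For LOC109098961 the values were 842.4, 1079 and 983 CPM at hatching, against 32.4, 31.3 and 29.8 CPM at organ formation (log2 change 4.96, SE 0.13, edgeR adjusted p = 3.9e-13). No library overlapped between the stages in either gene. By contrast LOC109052177, the myosin light chain 4-like gene, had 2.77, 2.01 and 2.96 CPM at hatching, against 36.5, 39.4 and 42.0 CPM at organ formation, and fell by 3.93 on the log2 scale (SE 0.25, edgeR adjusted p = 9e-09). Per length, mylpfb made 30.2% ± 0.56 of the light chain RPKM at hatching (SD, n = 3), where at organ formation the leading light chain was the smooth muscle type LOC109057136, with 12.6% ± 0.38.

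At hatching the most abundant alpha actins described as skeletal rose and actc1a did not pass. At hatching actc1b had 3039, 3779 and 3652 CPM, against 436.0, 463.0 and 428.5 CPM at organ formation (log2 change 2.98, SE 0.27, edgeR adjusted p = 3.2e-07). The gene acta1b (LOC109100842), a second alpha actin described as skeletal, had 1519.8, 2230.3 and 1816 CPM at hatching, against 117.7, 130.3 and 116.0 CPM at organ formation (log2 change 3.93, SE 0.35, edgeR adjusted p = 6.3e-07). The cardiac actin actc1a had 528.0, 622.5 and 637.1 CPM at hatching, against 591.9, 747.1 and 632.9 CPM at organ formation, values that overlap and did not pass (edgeR adjusted p = 0.55). Per length, actc1b then made 45.3% of the alpha actin RPKM in the larva and 41.7% at hatching.

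**Figure D4:**
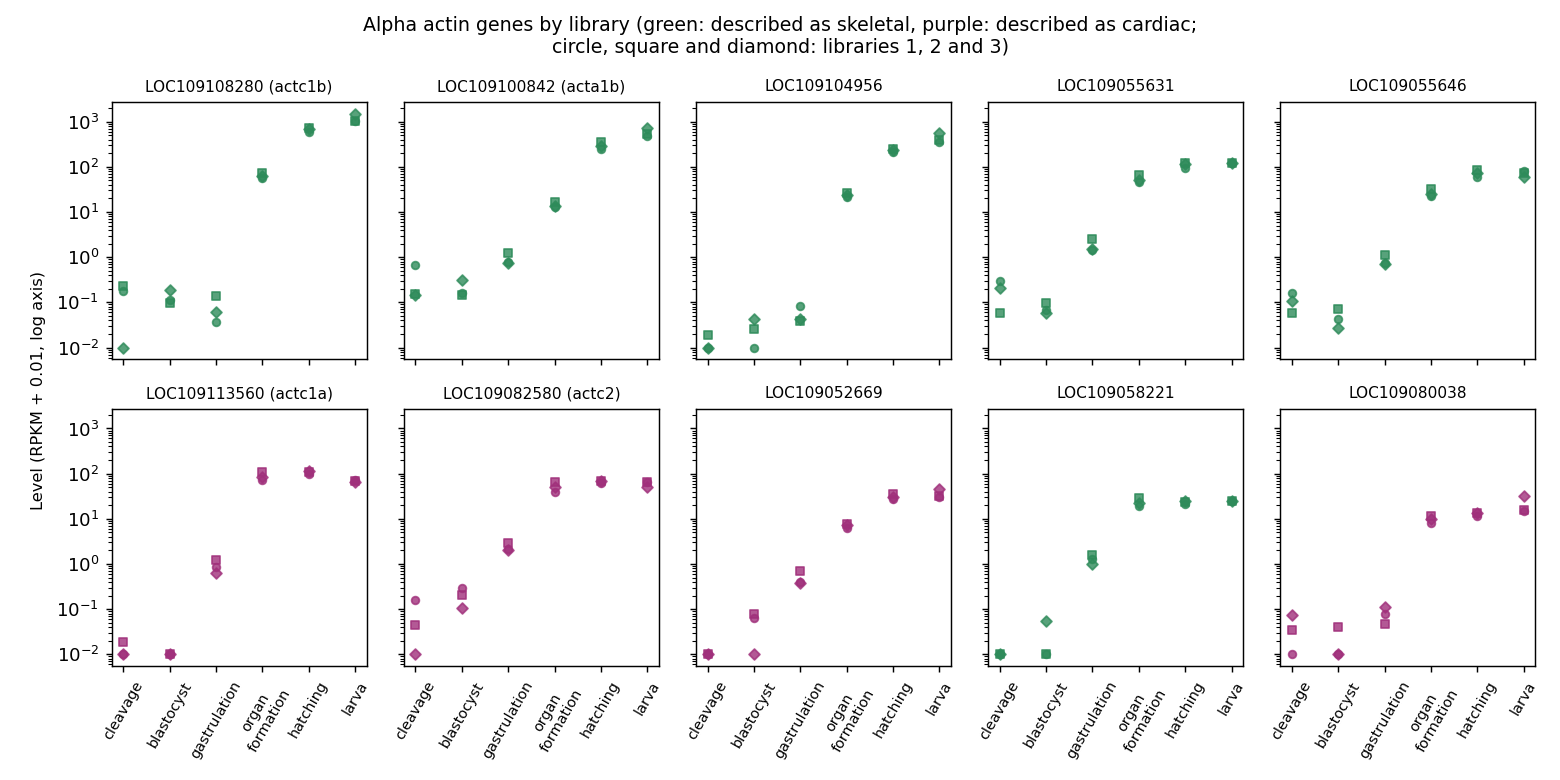
RPKM plus 0.01 (log axis) of the 10 alpha actin genes against stage, one point per library, green for genes described as skeletal and purple for those described as cardiac. By RPKM the genes actc1b and acta1b are highest in the larva and actc1a at hatching, whereas by CPM actc1a is highest at organ formation. In the limma fits on RPKM all 10 genes had a positive log2 change from organ formation to hatching, and 6 were called higher. In edgeR on counts 6 of the 10 were positive. The library size behind RPKM, relative to counted totals, was 1.38 to 1.68 at organ formation and 1.09 to 1.14 at hatching. Its part in the RPKM changes was not tested.

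The 3 abundant heavy chains rose as well, with a wide spread between libraries. LOC109107622 had 822.7, 2030.1 and 1131 CPM at hatching, against 131.2, 116.5 and 96.3 CPM at organ formation (log2 change 3.53, SE 0.29, edgeR adjusted p = 2.5e-07). LOC109074077 had 266.6, 702.3 and 358.8 CPM, against 34.6, 29.9 and 24.0 CPM at organ formation (log2 change 3.91, SE 0.39, edgeR adjusted p = 9.4e-05). LOC109074062 had 245.9, 597.2 and 329.8 CPM, against 38.9, 31.3 and 27.4 CPM at organ formation (log2 change 3.59, SE 0.31, edgeR adjusted p = 1.6e-06). Library 2 of hatching was the highest for each of the 3 genes, and all hatching libraries lay above those of organ formation. Per length, LOC109074062 led with 46.0% of the heavy chain RPKM at hatching, and LOC109107622 and LOC109074077 had 25.6% and 24.5%. Their implied lengths were 0.721, 4.39 and 1.51 times that of actc1b, so these shares compare rows of unlike length. By counts LOC109107622 was the highest of the 3. The shares leave out the transcribed pseudogene LOC109107179, which had 189873 counts at hatching, against 124422 for LOC109107622.

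Among the thick filament partners, myosin-binding protein C, fast-type-like (LOC109088574) had 166.7, 349.1 and 206.9 CPM at hatching, against 5.45, 3.22 and 3.10 CPM at organ formation (log2 change 5.94, SE 0.29, edgeR adjusted p = 2.8e-11). The myomesin-2-like genes LOC109068549 and LOC109068548 rose by log2 changes of 6.56 (SE 0.31) and 4.22 (SE 0.23) (edgeR adjusted p = 4.4e-10 and 2.6e-11), to means of 95.7 and 91.6 CPM. The myomesin-1-like gene LOC109048401 rose by 1.10 (SE 0.22, edgeR adjusted p = 0.0008). The difference between these genes was not tested, and other myomesin-1-like genes, LOC109055138 and LOC109066590, were also called higher at hatching. The leading myomesins per length were LOC109068548 with 22.2% of the class RPKM at hatching and the myomesin-1-like gene LOC109064194 with 26.2% at organ formation.

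Nebulin and its relative nrap rose too. For neb the libraries held 456.3, 999.5 and 575.5 CPM at hatching, against 326.9, 196.0 and 194.9 CPM at organ formation (log2 change 1.5, SE 0.38, edgeR adjusted p = 0.0082). The anchoring protein gene nrap had 52.7, 112.8 and 59.9 CPM at hatching, against 7.51, 7.24 and 6.57 CPM at organ formation (log2 change 3.40, SE 0.34, edgeR adjusted p = 1.5e-06). In both genes every hatching library was above every organ formation library.

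For the titins the libraries overlapped. LOC109090096 had 3048, 9351 and 3924 CPM at hatching, against 4108, 1734 and 1967 CPM at organ formation (log2 change 1.06, SE 0.44, edgeR adjusted p = 0.086). ttn.2 had 1692, 4606 and 2118 CPM at hatching, against 2585, 1176 and 1410 CPM at organ formation (log2 change 0.70, SE 0.44, edgeR adjusted p = 0.27). ttn.1 had 1400.4, 4303 and 1798 CPM at hatching, against 1489, 615.3 and 702.6 CPM at organ formation (log2 change 1.42, SE 0.46, edgeR adjusted p = 0.034). That last call was lost without hatching replicate 2 (log2 change 0.78, adjusted p = 0.20) and without organ formation replicate 2 or 3 (adjusted p = 0.12 and 0.11).

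**Figure D5:**
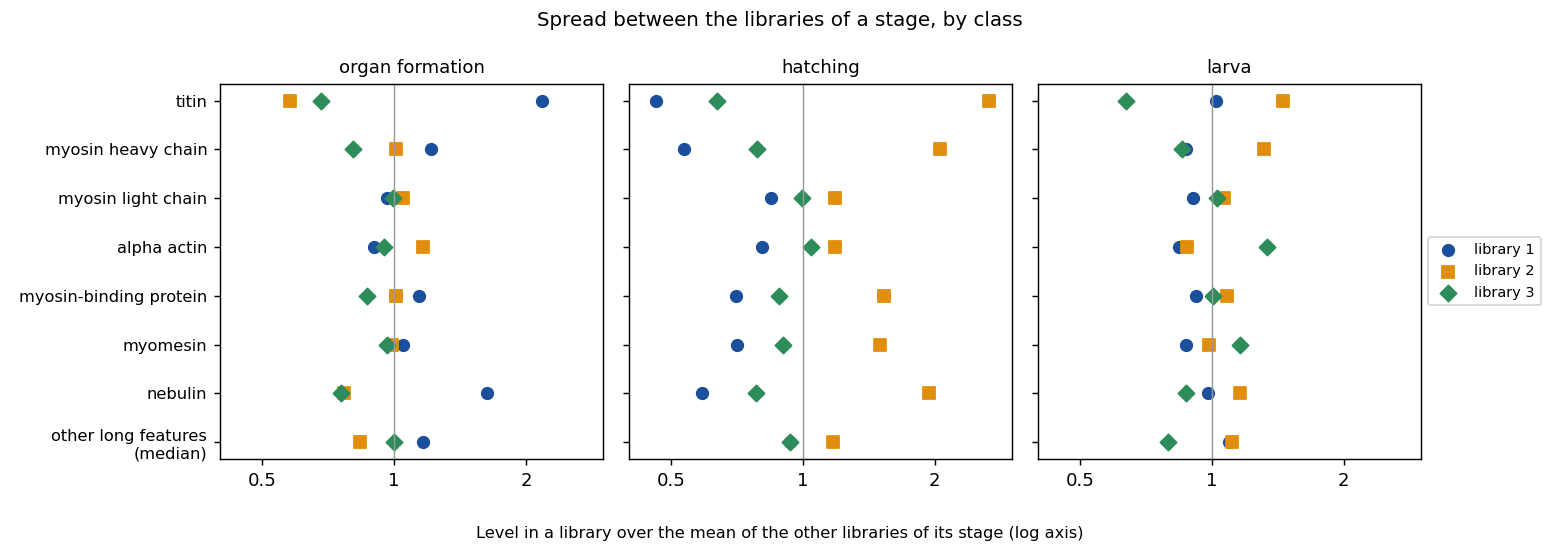
Summed level of each class in a library divided by the mean of the other 2 libraries of its stage (log axis), for organ formation, hatching and larva, with the median of long non-member features in the bottom row. Titin spreads from 0.461 to 2.67 at hatching, whereas light chains spread from 0.843 to 1.18.

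The titin count rested on single libraries. Library 1 of organ formation held 2.18 times and library 2 of hatching 2.67 times the mean titin sum of the other libraries of its stage, and nebulin moved with it (1.63 and 1.94 times), while alpha actin and light chain sums stayed within 0.804 to 1.18 times in both stages. Without organ formation replicate 1, 10 titins were called higher at hatching and the median titin change was 1.49, and without hatching replicate 2 there were 2 and the median was 0.31. Other long features that are not members, over 8 times the length of actc1b and at 10 CPM or more, had a median log2 value against the other libraries of 0.22 in library 1 of organ formation and 0.23 in library 2 of hatching. The part of transcript length in the titin values was not tested.

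Between hatching and the larva the changes were fewer. Of the 102 tested members 19 rose, 5 fell and 78 missed the threshold, where 5.32% of all tested features rose and 6.13% fell (11.5% either way). The median log2 change was 0.32 for the members and 0.00 for all tested features. The risers were 7 light chains, 5 heavy chains, 4 myomesins, 2 myosin-binding proteins and 1 alpha actin, with no titin and no nebulin.

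Some of the abundant fast genes still gained. The regulatory light chain LOC109098961 had 1518, 1687 and 1494 CPM in the larva, against 842.4, 1079 and 983 CPM at hatching (log2 change 0.69, SE 0.11, edgeR adjusted p = 0.00052). The essential light chain LOC109064236 had 681.5, 870.4 and 914.3 CPM, against 368.0, 581.8 and 434.1 CPM at hatching (log2 change 0.83, SE 0.15, edgeR adjusted p = 0.0019). The skeletal alpha actin LOC109104956 had 1803, 1940.2 and 2738 CPM, against 1083, 1341 and 1243 CPM at hatching (log2 change 0.82, SE 0.18, edgeR adjusted p = 0.0051). No larval library overlapped with hatching in these genes, and library 3 of the larva was the highest for the actin.

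The myomesin-2-like gene LOC109068549 rose again, with 197.8, 227.7 and 285.7 CPM in the larva, against 70.4, 130.2 and 86.4 CPM at hatching (log2 change 1.31, SE 0.21, edgeR adjusted p = 0.00091). LOC109052177 rose, with 7.63, 9.12 and 11.9 CPM in the larva, against 2.77, 2.01 and 2.96 CPM at hatching (log2 change 1.89, SE 0.24, edgeR adjusted p = 9.4e-05). All larval libraries were still below its organ formation values. The gene mybpha (LOC109061625), described as myosin-binding protein H-like, had 14.3, 17.1 and 32.4 CPM in the larva, against 3.07, 3.95 and 3.36 CPM at hatching (log2 change 2.61, edgeR adjusted p = 0.00084).

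Several copies with few counts before the larva rose there. The ventricular regulatory light chain myl2b (LOC109095081) had 6.59, 8.91 and 16.3 CPM in the larva, against 0.236, 0.382 and 0.0934 CPM at hatching (log2 change 5.46, SE 0.72, edgeR adjusted p = 8.6e-05). Its relative LOC109066430 had 5.93, 5.40 and 19.2 CPM in the larva, against 0.277 CPM on average at hatching (log2 change 5.17, edgeR adjusted p = 0.0004). Among the heavy chains, LOC109048412 had 5.04, 7.23 and 28.8 CPM in the larva, against 0.203, 0.191 and 0.374 CPM at hatching (log2 change 5.71, SE 0.64, edgeR adjusted p = 1e-05). LOC109110643 had 123, 262 and 1508 counts in the larval libraries, against 12, 19 and 3 counts at hatching (log2 change 6.17, edgeR adjusted p = 0.0063). This gene and the heavy chain LOC109048106, also called higher, are protein-coding in the deposited annotation but pseudogenes in the RefSeq gene table.

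Library 3 of the larva was the highest for every one of these low copies. The heavy chains LOC109112168 and LOC109075286 had 54, 91 and 326 and 28, 18 and 172 larval counts, and the second of these had none at hatching. Without larva replicate 3 the log2 changes were 4.21 for LOC109110643, 4.53 for LOC109048412 and 6.16 for LOC109112168, each still called, and 1.78 for LOC109048106 and 3.34 for myl4 (LOC109047525), no longer called (edgeR adjusted p = 0.57 and 0.19). LOC109075286 was also called without it (edgeR adjusted p = 0.02), but not by DESeq2 (adjusted p = 0.25) or with only the 2 stages (edgeR adjusted p = 0.16), and LOC109110643 was not called with only the 2 stages (edgeR adjusted p = 0.073). In all, 15 members were called higher and 1 lower without that library, against 19 and 5 with it. Smooth muscle markers moved with it: their summed level was 296.5, 288.9 and 764.1 CPM in the larval libraries, and the aortic smooth muscle actin LOC109099485 had 38.2, 42.0 and 342.4 CPM. The part of that library's makeup in these rises was not tested.

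The 5 falls were of genes that had been high before. The cardiac actin actc1a had 374.0, 369.8 and 339.1 CPM in the larva, against 528.0, 622.5 and 637.1 CPM at hatching, a log2 change of -0.72 (SE 0.16, edgeR adjusted p = 0.0048). LOC109088574, the fast-type myosin-binding protein C, had 136.1, 158.5 and 123.5 CPM in the larva, against 166.7, 349.1 and 206.9 CPM at hatching (log2 change -0.79, SE 0.22, edgeR adjusted p = 0.025). That call was lost without hatching replicate 2, where the log2 change was -0.43 (edgeR adjusted p = 0.20). The other 3 falls, of LOC109062390, LOC109101381 and myl10, were of 0.44 to 0.48 on the log2 scale, and each lost its call without larva replicate 3. Of the 5, only that of actc1a was called without that library (edgeR adjusted p = 0.013).

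Lists around the members moved as follows in the larva. Over all tested features 5.32% rose and 6.13% fell. Of the thin filament regulators 20 of 53 (37.7%) rose and 1 fell. Of the sarcomere assembly factors 1 of 42 rose and 4 fell (2.38% and 9.52%), near the share over all features. Of the heart markers, none of 17 rose and 4 fell. Of the smooth muscle markers 8 of 25 rose and none fell. Their summed level was far highest in larva replicate 3, as given above, and counts without that library are not given here for this list. Of the non-muscle myosins and actins none of 13 rose and 2 fell. Differences between these lists were not tested.

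Individual genes of these lists can be set beside the members. The tropomyosin alpha-1 chain-like gene LOC109064614 averaged 121.0 CPM at organ formation, 1379.7 CPM at hatching and 2205 CPM in the larva, and the skeletal troponin C-like gene LOC109060807 averaged 122.8, 890.6 and 1537 CPM. The Z disc protein gene LOC109066092 (filamin-C-like) had 86.6, 99.1 and 94.3 CPM at hatching, against 388.6, 338.9 and 277.3 CPM at organ formation, and fell by 1.84 on the log2 scale (SE 0.14, edgeR adjusted p = 2.3e-09). The myogenic factor MyoD1 homolog (LOC109050760) averaged 26.0 CPM at gastrulation, 94.6 CPM at organ formation, 29.0 CPM at hatching and 29.4 CPM in the larva. It rose at gastrulation and organ formation by log2 changes of 5.57 and 1.87 and fell at hatching by 1.71 (edgeR adjusted p = 1.2e-13, 1e-07 and 1.2e-06).

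No member heavy chain is described as slow. Of the numbered sarcomeric myosins outside the rule, with the myosin-binding protein C genes spelled without a hyphen, 11 of 15 tested rose and none fell at organ formation. Over all tested features 28.1% rose and 19.8% fell. This list was added after the data were seen. The myosin-7-like genes LOC109050079 and LOC109050073, named after the slow and cardiac heavy chain of mammals, averaged 176.5 and 82.6 CPM at organ formation, 300.3 and 90.1 CPM at hatching and 333.8 and 78.5 CPM in the larva. At hatching, against organ formation, LOC109050079 rose by a log2 change of 0.77 (edgeR adjusted p = 0.0081) and LOC109050073 had 0.12 (edgeR adjusted p = 0.77).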

How the data were processed

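The deposited files held read counts per feature for each library, and a series table with counts and RPKM; all 18 count files were equal to the table's counts. HISAT2, StringTie 1.3.3b, featureCounts and edgeR are named without roles, per the submitters' processing notes, and no source states the build or how reads fitting several places were counted. RPKM values were used as deposited by the authors; their library size, relative to counted totals, varied from 1 to 1.80 times between libraries (cleavage replicate 1 set to 1). Counts were fitted in R 4.3.3 with edgeR 4.0.16 (filterByExpr by stage, TMM factors, robust quasi-likelihood F test, all 18 libraries, Benjamini-Hochberg adjustment over 69265 features, threshold 0.05). The standard error of a log2 change is its size divided by the square root of F. "At least" folds set a stage with no count to 3 counts over its libraries; with 1 to 3 counts an exact 95% interval covers counting error only. Tested on simulated counts for larva against hatching over 69265 features, the fit found 27% of 100 genes changed 2-fold and 55% of 100 changed 4-fold. It made 6 false calls. Among the changed genes averaging over 100 counts per library, it found 57.8% of 45 and 95.7% of 46. The simulated counts varied gene by gene, with no shift shared by the genes of a library. These figures, false calls among them, therefore do not cover such shifts.

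Alternatives were other scalings and filters, DESeq2 1.42.0, limma 3.58.1 on log2(RPKM + 1) and log2(RPKM + 0.1), fits of only the 2 stages, a replicate block and leaving out each library. Every pair of libraries of a stage differed by more than counting error (smallest chi-square per degree of freedom 3.84). That check cannot tell repeat preparations of the same RNA from separate samples. The text names the 4 members with the highest stage mean in each class, the 3 largest rises and falls among called genes at 10 CPM or more with no overlap, the 3 highest genes of a list and counts of 5 or fewer; other members, such as myl7, actc2, mybpha and LOC109070569, were chosen after their values were seen. Members and lists were chosen with earlier results of these data known. Promoter sequences were not examined here.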

Additional observations from a re-analysis of the deposited data

Results flagged for a closer look

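A pair of transcribed pseudogenes carried the descriptions of the rule but not the protein-coding label. Both were among the tested features, but the counts of members leave them out. LOC109107179, described as a fast skeletal myosin heavy chain, had 6 counts at blastocyst, 6185 at organ formation, 189873 at hatching and 285099 in the larva, above the 3 counts that a stage with no count allows. Its stage means were 105.4, 2025 and 3679 CPM at organ formation, hatching and larva, more counts in the larva than any heavy chain member had. LOC109048417 had 108 counts at blastocyst, 15 at gastrulation, 9 at organ formation, 8 at hatching and 19 in the larva. Both were singled out because of their signal outside the members.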

How the results depend on the processing

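Counts of members called (higher, lower, or both) are given for each comparison under the settings that moved them by over 1.5 times; the cause was not tested. For blastocyst against cleavage (17 called, 10 higher, 7 lower), fits of only the 2 stages gave 7 called, 3 higher and 4 lower, limma on log2(RPKM + 1) gave 9 and 2 higher, limma on log2(RPKM + 0.1) gave 11 and 4 higher, and 3 were lower with no filter or with 1 CPM in 3 libraries. For gastrulation against blastocyst (63 called, 60 higher, 3 lower), limma on log2(RPKM + 1) gave 16 and 13 higher, limma on log2(RPKM + 0.1) gave 37, 32 higher and 5 lower, and library totals gave 6 lower. For organ formation against gastrulation (9 lower), both limma fits gave 3 lower. For hatching against organ formation (46 higher, 3 lower), limma on log2(RPKM + 1) gave 70 higher and only the 2 stages gave 7 lower. For larva against hatching (19 higher, 5 lower), limma on log2(RPKM + 1) gave 29 higher, limma on log2(RPKM + 0.1) gave 1 lower, library totals gave 2 lower and only the 2 stages gave 8 lower.

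Leaving out 1 library gave 11 to 18 called, 6 to 13 higher and 3 to 8 lower for blastocyst; 3 to 6 lower for gastrulation; and 16 to 31 called, 14 to 27 higher and 1 to 5 lower for the larva. Called changes that turned at gastrulation were those of LOC109064108 (0.51; -0.15 with library totals, -0.43 and -0.48 with limma on log2(RPKM + 1) and log2(RPKM + 0.1)), LOC109052165 (0.82; -0.02 and -0.06 with limma), LOC109101381 (0.27; -0.39 with library totals, -0.54 and -0.70 with limma), LOC109110107 (0.89; -0.11 in both limma fits) and LOC109110091 (0.66; -0.00 with library totals, -0.31 and -0.34 with limma). Titins called higher at hatching were 3 of 26 in edgeR and 18 of 18 with limma on RPKM, and at gastrulation 22 of 26 in edgeR and 1 and 14 of 18 with limma at pseudocounts of 1 and 0.1.

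Replicate numbers did not pair the libraries: correlations of deviations between neighbouring stages were -0.0852 to 0.0847, 0 of 15 over 0.1, and 4 of 18 libraries correlated best with their own number. With the replicate block the counts of members called were 15, 61, 87, 48 and 21 over the 5 comparisons in stage order, against 17, 63, 85, 49 and 24 without it. Of the heavy chains, 21 of 31 had too few counts to be tested, and the part of depth in this was not tested.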
